A study of Mus musculus with 14 samples.

Results

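The genes described here are the replication-dependent histone genes of the mouse, taken as every gene of the count tables whose symbol starts with Hist1h, Hist2h, Hist3h or Hist4h. The rule found 70 genes among 52459. By their symbols 6 encode linker histone H1, 20 encode H2A, 19 H2B, 12 H3 and 13 H4. GENCODE lists 67 of them as protein coding, and the rest are pseudogenes. In the mm10 genome 56 lie on chromosome 13, 10 on chromosome 3, 3 on chromosome 11 and 1 on chromosome 6. They were compared between wild-type E14Tg2a mouse embryonic stem cells (WT) and E14Tg2a cells that carry the METTL14 R255K knock-in, in which a lysine replaces an arginine of the RNA methyltransferase subunit METTL14. The knock-in was made with CRISPR-Cas9 from single colonies, so a line difference and the substitution cannot be told apart. MeRIP-seq, in which RNA fragments are pulled down with an antibody against N6-methyladenosine (m6A), had 2 IP and 2 input libraries of total RNA per genotype and gave 1 peak list per genotype. The decay experiment had 6 libraries labelled as polyA RNA, from cells of each genotype treated with 5 µg/ml actinomycin D, an inhibitor of transcription, for 0, 4 or 8 h. Each genotype and time had 1 library. No p-value is given, and a model that pools the times of a genotype was not fitted. All intervals of counts below cover counting error only, and those of shares of genes or peaks only the number of genes or peaks.

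Replication-dependent histone genes supply the histones that package newly copied DNA, and their mRNAs accumulate in S phase. Their mRNAs are the known exception among metazoan mRNAs that end in a conserved stem-loop instead of a polyA tail. The stem-loop is bound by SLBP and is needed for rapid degradation of the mRNA when DNA synthesis stops. The precursor RNA is cut past the stem-loop with the help of the U7 snRNP. A library made from polyA RNA therefore holds only part of these transcripts, while the total RNA used for MeRIP-seq holds both forms.

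The stem-loop is shown first because it sets these genes apart and fixes where their mature mRNAs end. The histone 3′ stem-loop consensus was searched along the transcribed strand from the start of the last exon to 200 bases past its annotated end. It was found in 60 of the 70 histone genes (85.7%) and in 32 of the 52389 other genes (0.0611%). There were 61 matches of 6 kinds, and in all 61 the 6 bases before the loop pair with the 6 bases after it. The 6 kinds are printed from mm10, 5′ to 3′ as DNA, with the 4 bases of the loop in capitals and 1 gene as an example of each.
Hist1h1c, chr13:23739512-23739527, plus strand: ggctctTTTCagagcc
Hist1h2bk, chr13:22036300-22036315, plus strand: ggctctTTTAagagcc
Hist4h4, chr6:136803998-136804013, minus strand: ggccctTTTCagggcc
Hist1h4i, chr13:22040966-22040981, minus strand: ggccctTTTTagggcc
Hist2h2ac, chr3:96220418-96220433, minus strand: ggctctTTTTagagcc
Hist1h4j, chr13:21735437-21735452, plus strand: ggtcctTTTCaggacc
The first form occurred in 38 genes of classes H1, H2A, H2B and H3 and in no H4 gene. The second occurred in 9 genes of the same 4 classes. The third form was found in 8 genes, the form of *Hist1h4i* in 2 and the last in 2, all of them H4 genes. The remaining form was found in 1 H2A gene and 1 H2B gene. Of the 10 genes without a match, 4 have more than 1 exon, *Hist1h2bc*, *Hist1h2bp*, *Hist1h2bq* and *Hist1h2br*, of which the last exon alone was searched. No match says only that these letters are not in the searched window. In 22 genes the annotated gene ran more than 100 bases past the stem-loop, and 14 of these were among the 30 genes with enough reads to measure. Of the 38 genes with an annotated end nearer to the stem-loop or before it, 10 were measured.

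Most of these genes had few reads in the polyA libraries. With detection set at 10 counts or more in at least 1 library, 40 of the 70 were detected. A further 24 had between 1 and 9 counts at most, and 6 had no count in any library. In a library of this depth 3 counts, the limit that a count of 0 allows, equal between 0.159 and 0.217 CPM, the count scaled to a common library total. A mean of at least 10 counts over the 6 libraries was reached by 30 genes, which are called measured below, and by 14293 genes in all. The counts were low even then, since 12 of the 30 stayed below 30 counts in every library and 5 reached 100 in any. The 6 genes without a count, *Hist2h2ab*, *Hist2h2aa1*, *Hist2h2aa2*, *Hist2h3c1*, *Hist2h3b* and *Hist2h2bb*, all lie in the chromosome 3 cluster.

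Many of these genes overlap other annotated genes or have near-identical copies, and the part of either in the low counts was not tested. Exons of 26 histone genes overlap another annotated gene, and of these 2 were measured, against 28 of the 44 without an overlap. All 20 H2A genes and all 6 genes without a count belong to the 26. Of the 29 other genes that they overlap, 22 had no count in any library. Whether reads in such overlaps were counted, and whether strand was used, is not stated, so a low count of an H2A gene cannot be told apart from reads left uncounted. In 25 of the 70 genes fewer than 50% of the 100-base windows of the exons occur once in the genome, so uniquely aligned reads could reach only part of them.

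The 6 libraries held between 13812160 and 18813640 counts. *Mettl14* itself had 681, 376 and 232 counts in the WT libraries at 0, 4 and 8 h, against 299, 280 and 209 in the R255K libraries, and gene counts do not show the substituted codon. All 8 embryonic stem cell markers examined were measured in both genotypes, with *Pou5f1* between 13537 and 24209 counts. Their ratios of CPM in R255K over WT at 0 h lay between 0.46 for *Esrrb* and 0.97 for *Dppa4*. Of the 6 endoderm markers 5 were measured, with ratios at 0 h between 0.21 for *Sox7* and 5.76 for *Foxa2*. Of the 8 fibroblast markers 3 were measured (*Col1a1*, *Col1a2* and *Thy1*), and their list summed to between 5.45 and 7.60 CPM in the WT libraries and between 27.4 and 35.0 CPM in the R255K libraries. *Lum* was at 0 in every library, and *Dcn*, another defining fibroblast gene, had between 1 and 9 counts. In bulk RNA a larger share of a cell type and more RNA per cell cannot be told apart, and the part of these cells in the histone values was not tested.

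In MeRIP-seq the histone genes went against the direction of the whole lists. The WT list held 17 peaks on exons of 16 histone genes, and the R255K list held 43 peaks on 42 histone genes. Exonic peaks of all genes numbered 13870 for WT against 8818 for R255K, a ratio of 0.636. For histone genes the ratio was 2.53, with an interval from the counts alone of 1.41 to 4.73. That interval takes the peaks as independent, although both lists cover the same genes and some of these share sequence. Neither it nor the Wilson intervals of shares cover the spread between replicates of a genotype. A peak was on 22.9% of the histone genes in WT cells (95% Wilson interval 14.6 to 34.0) and on 60.0% in R255K cells (48.3 to 70.7). Over all genes of the tables these shares were 17.6% and 12.4%, over measured genes 55.6% and 40.7%, and over other measured genes with a single exon 27.6% and 24%. A peak in WT cells alone was on 0 histone genes, against 6.31% of all genes, 18.1% of measured genes and 6.26% of other measured single-exon genes. Among the 70, 16 had a peak in both genotypes, 26 in R255K cells alone and 28 in neither. A peak in R255K cells alone was found on 1.11% of all genes, on 3.13% of measured genes and on 2.66% of other measured single-exon genes.

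None of the 17 WT peaks on histone genes was lost, that is, left without a single base in common with an R255K peak, while 47.9% of the other exonic WT peaks were. In the other direction, 26 of the 43 R255K peaks overlapped no WT peak (60.5%, 45.6 to 73.6), against 12.9% of the other exonic R255K peaks. At all 17 peaks present in both lists the deposited fold enrichment, the IP signal at the summit over the local background, was higher in R255K cells. The ratio had a median of 1.41 and lay between 1.09 and 1.66. Among the other exonic peaks present in both lists 28.8% were higher in R255K cells. The −log10 q of MACS2 was also higher in R255K cells at all 17.

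**Figure D1:**
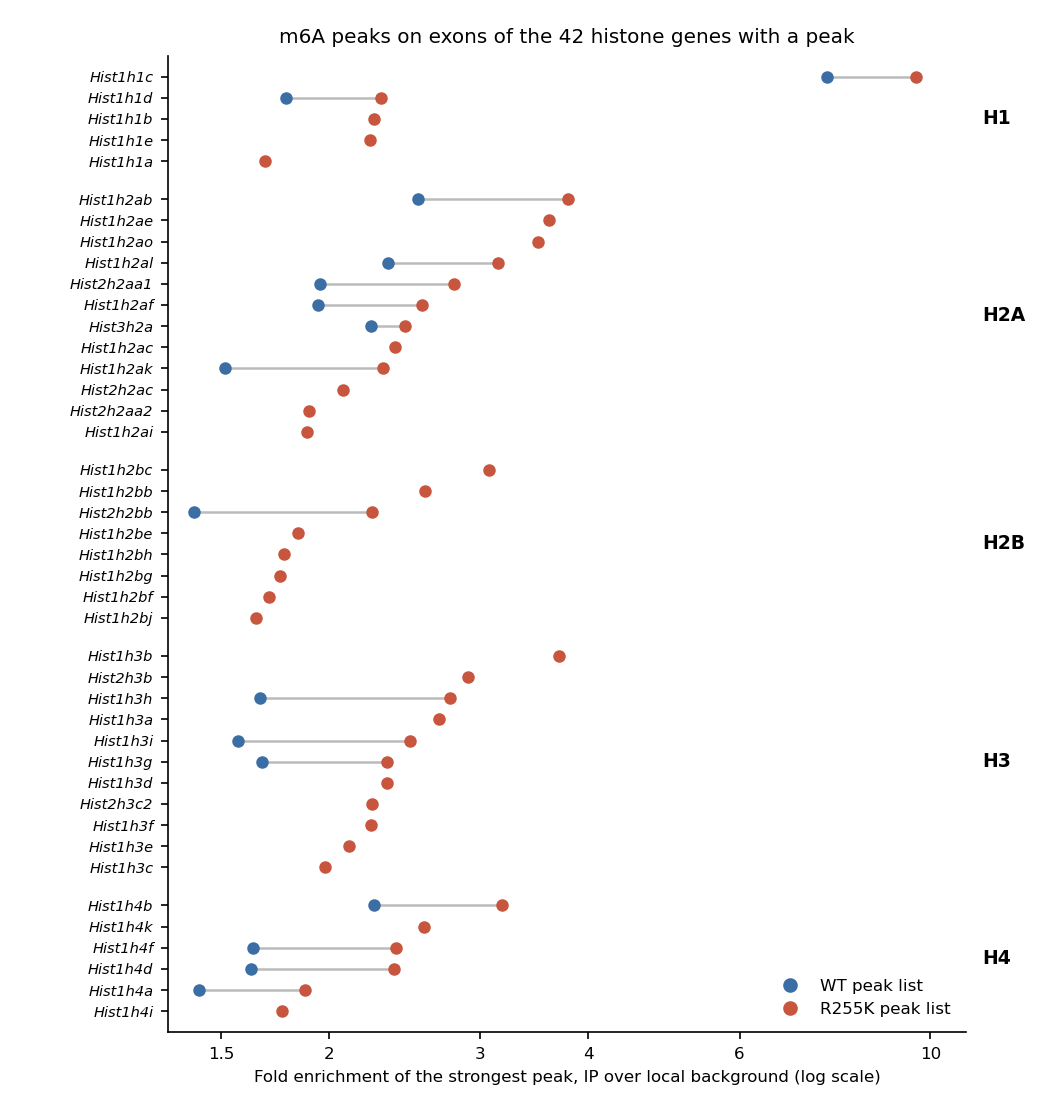
Fold enrichment of the strongest peak (x axis, log scale) on each of the 42 histone genes with a peak, grouped by histone class, with WT in blue and R255K in red and a grey line joining both where both lists held a peak. All 16 blue points lie to the left of the red point of the same gene, and only Hist1h1c lies above 4.

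These peaks were weak. Their median fold enrichment was 1.78 in the WT list and 2.34 in the R255K list, against 6.17 and 5.52 for the other exonic peaks. All but 1 of the peaks in each list had a fold enrichment under 4. Weak peaks on other genes stood nearer to the histone peaks in these measures, except in the share lost. Other exonic peaks under 4 numbered 3064 for WT against 2519 for R255K, a ratio of 0.822. Of these, 69.7% of the WT peaks were lost, 23.9% of the R255K peaks had no WT peak, and 61.5% of those in both lists were higher in R255K cells. With a fold enrichment of at least 4 required, 1 peak on 1 histone gene remained in each list. The depth of the MeRIP libraries is unknown from the lists, and each list stands for 1 genotype, so its spread between replicates is unknown.

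The distal peak of *Hist1h1c* was the exception among them. *Hist1h1c* encodes H1.2, a linker histone that binds DNA at the entry and exit of the nucleosome. Fold enrichment was 7.59 at the WT peak chr13:23739897-23740172 and 9.62 at the R255K peak chr13:23739853-23740195. Its summits lay in the annotated 3′ UTR, 500 and 497 bases past the end of the stem-loop, on sequence that only a transcript running beyond the stem-loop can hold. *Hist1h1c* also had a weak peak over its coding sequence, at chr13:23738823-23739430 with 1.92 in WT cells and at chr13:23738796-23739495 with 2.53 in R255K cells.

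Apart from this peak, the summits lay within the body of the short mRNA. A summit in coding sequence was seen for 15 of 17 WT peaks and 41 of 43 R255K peaks, and 1 in each list lay on the pseudogene *Hist1h2al*. On genes with a stem-loop, 13 of 14 WT summits and 38 of 39 R255K summits lay before it. The peaks were 262 bases wide at the median in WT cells and 373 in R255K cells, and at the median they covered 49.9% and 52.0% of the exons.

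**Figure D2:**
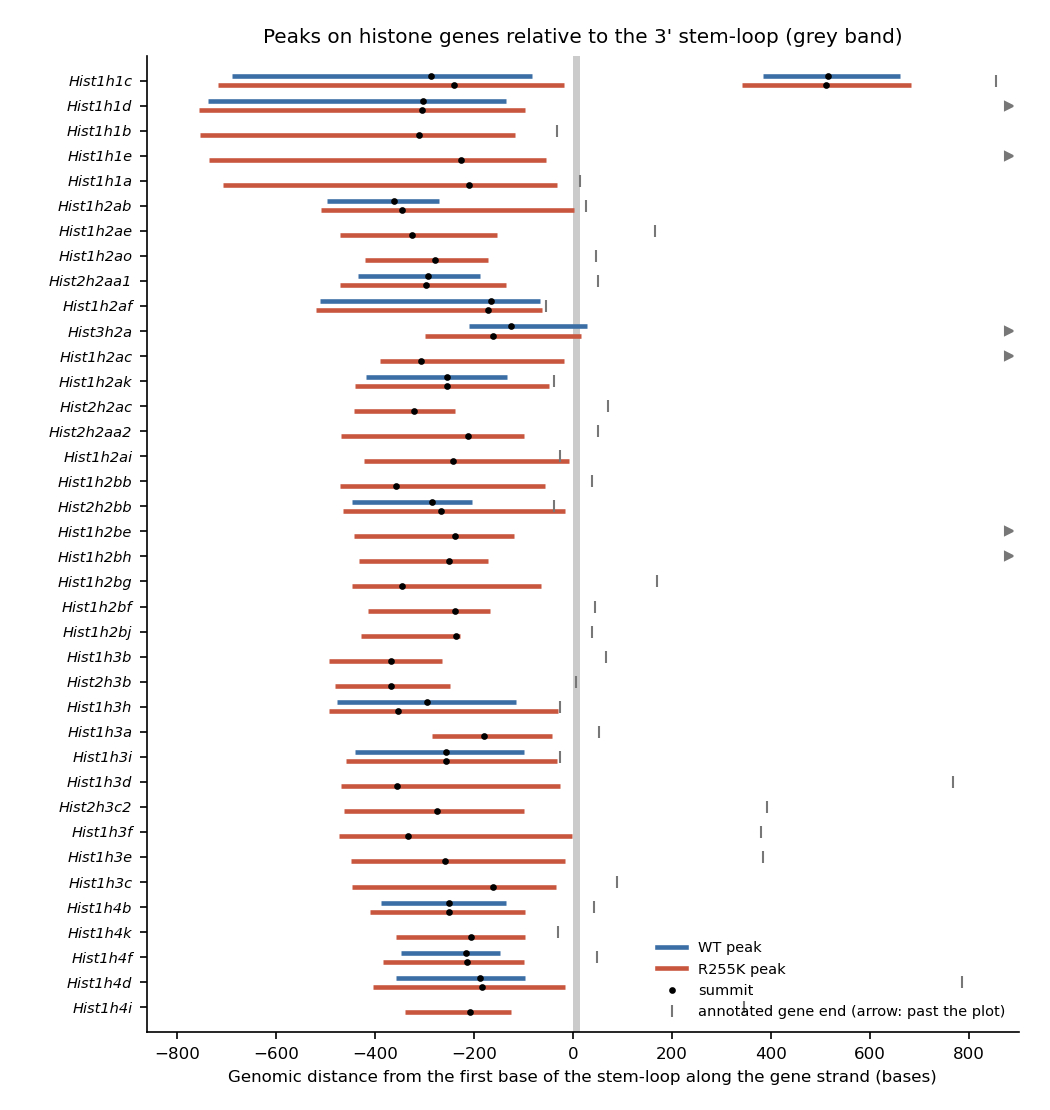
Position of the peaks on the 38 histone genes that have both a stem-loop and a peak, as genomic distance in bases from the first base of the stem-loop (grey band) along the gene strand. Blue bars are WT peaks, red bars R255K peaks, black dots summits and grey ticks the annotated gene ends, and only the distal Hist1h1c peaks have their summit past the stem-loop.

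By class, R255K peaks were on 11 of 12 H3 genes and on 5 of 6 H1 genes. They were on 12 of 20 H2A, 8 of 19 H2B and 6 of 13 H4 genes. In WT cells the numbers were 3 for H3, 2 for H1, 6 for H2A, 1 for H2B and 4 for H4. H2A and H2B form the dimers, and H3 and H4 the tetramer, of the nucleosome core. In every class more genes had a peak in the R255K list than in the WT list.

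The strongest peak on an H3 gene was that of *Hist1h3b* at chr13:23752327-23752555, with a fold enrichment of 3.70 in R255K cells and no WT peak. On *Hist1h3h* the value was 1.66 in WT and 2.76 in R255K cells, the largest ratio among the genes with both. The highest value on an H2A gene was on *Hist1h2ab*, at 2.54 in WT and 3.79 in R255K cells. The H2A gene *Hist1h2ae* had 3.61 in the R255K list alone, with the highest −log10 q of the coding sequence peaks, 63.3. Among H2B genes the highest was *Hist1h2bc* with 3.07, in the R255K list alone, and among H4 genes *Hist1h4b* with 2.26 and 3.18. *Hist3h2a* on chromosome 11 differed least among the genes with a coding sequence peak in both lists, at 2.24 and 2.45.

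Peaks were also found on genes with no assigned count in the polyA libraries. Of the 6 histone genes without a count, *Hist2h2aa1*, *Hist2h2aa2*, *Hist2h3b* and *Hist2h2bb* had an R255K peak, and *Hist2h2aa1* and *Hist2h2bb* also a WT peak. Each of these peaks also lies on an exon of an overlapping gene, *Gm20633*, *Gm20632* or *Gm20628*, so its source cannot be told apart. The share of windows that occur once in the genome is 4.11% for *Hist2h2aa1*, 0% for *Hist2h2aa2*, 22.9% for *Hist2h3b* and 100% for *Hist2h2bb*. On *Hist2h2bb* fold enrichment was 1.39 at the WT peak chr3:96269726-96269968 and 2.24 at the R255K peak chr3:96269707-96270156. Of the 40 unmeasured histone genes 21 had an R255K peak and 9 a WT peak, and of the 30 measured ones 21 and 7 did. Of the 26 genes that overlap another gene 17 had an R255K peak, and of the 44 others 25. Of the 26 genes with a peak in R255K cells alone, 7 have over 90% of their windows once in the genome, among them the H1 genes *Hist1h1a*, *Hist1h1b* and *Hist1h1e*. The same holds for 5 of the 16 genes with a peak in both lists and 9 of the 28 without a peak. Fewer than 50% of the windows occur once in 7, 5 and 13 genes of these 3 groups.

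GGAC, the core of the preferred m6A motif, was less common at these peaks than elsewhere. It was searched within 100 bases of each summit, on the strand of the gene whose exons held most of the peak. For peaks on *Hist1h4b*, *Hist2h2aa1*, *Hist2h2aa2*, *Hist2h2bb* and *Hist2h3b* that gene was an overlapping one and not the histone gene. It lies on the opposite strand for *Hist2h2aa1*, *Hist2h2aa2*, *Hist2h2bb* and *Hist2h3b*, so the search there was not on the histone strand. GGAC was found at 6 of 17 WT peaks (35.3%, 17.3 to 58.7) and 22 of 43 R255K peaks (51.2%, 36.8 to 65.4), against 78.8% and 81.9% of the other exonic peaks with the same window. AGAC, an alternative core, was found at 76.5% and 74.4%, against 68.4% and 65.5%. AAAC was found at 29.4% and 20.9%, against 50.9% and 45.0%. A match describes the letters and not a modified base.

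The windows are shown because histone genes of a class share them. With GGAC in capitals, 5′ to 3′ on the gene strand of mm10, the match nearest to the summit was as follows in examples of 5 genes, for *Hist1h1c* at the WT peak.
Hist1h3i, chr13:21783127-21783150, minus strand: agatcgcgcaGGACttcaagaccg
Hist1h2bc, chr13:23684296-23684319, plus strand: cccagaagaaGGACggcaagaagc
Hist1h2ab, chr13:23751129-23751152, plus strand: atacatgtctGGACgcggaaagca
Hist1h4i, chr13:22041239-22041262, minus strand: aagtgcttcgGGACaacatccagg
Hist1h1c, chr13:23740018-23740041, plus strand: gttggactcgGGACtgagacgatt
The H3 sequence was the same at R255K peaks of 5 genes, *Hist1h3a*, *Hist1h3c*, *Hist1h3e*, *Hist1h3g* and *Hist1h3i*, and at the WT peak of *Hist1h3i*. The H2B sequence was the same at the R255K peaks of *Hist1h2bc*, *Hist1h2bg* and *Hist1h2bh*. A read of such a stretch alone could come from any of these copies. The *Hist1h1c* sequence belongs to the distal peak, where 2 GGAC matches lay within 100 bases of each summit, and the R255K summit was nearer to the other match.

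At 0 h the measured histone genes were expressed at a low level in the polyA libraries. Their mean level over both genotypes, per exon length as FPKM, had a median of 1.42 and ranged from 0.126 to 10.8, against a median of 5.48 over all measured genes. The highest 3 were *Hist1h1c* at 10.8 FPKM, the H4 gene *Hist1h4i* at 8.62 and the H2B gene *Hist1h2bc* at 8.41. Next came *Hist1h2ae* at 4.19, *Hist3h2ba* at 3.50 and *Hist1h3g* at 3.45. The neighbours in this order down to *Hist1h2bj*, the twelfth at 2.09, had no replicates to separate them. Exon lengths as annotated reach far past the stem-loop for some genes, such as 7425 bases for *Hist1h1d*, which lowers their FPKM.

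Summed over all 70 genes the histone counts were 985 in WT and 1284 in R255K cells at 0 h, which is 56.5 CPM (53.0 to 60.2) and 82.1 CPM (77.7 to 86.7). The ratio of 1.45 (exact conditional interval 1.34 to 1.58) rested on few genes. Without *Hist1h1c*, which held 16.4% of the WT and 29.8% of the R255K histone counts, it was 1.22. Without *Hist1h1c*, *Hist1h2bc*, *Hist1h4i* and *Hist3h2ba*, chosen after their values were seen, it was 0.92 (0.82 to 1.04).

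Gene by gene at 0 h the histone genes were split between higher and lower. The log2 ratio of CPM in R255K over WT, with 0.5 count added, had a median of 0.34 over the 30 measured histone genes and 0.09 over all measured genes. Over the 7468 measured genes between the quartiles of the histone genes' GC content, 48.1% to 58.6%, the median was 0.25. The ratio was 2-fold or more higher for 6 histone genes, where 14.8% of all measured genes were, and 2-fold or more lower for 3, where 10.5% were. Both shares of the histone genes, out of 30, lie near those backgrounds. The counting interval at 0 h lay above 1 for 6 histone genes, against 41.1% of all measured genes, and below 1 for 3, against 32.4%. For the other 21 of the 30 the interval held a ratio of 1. Low counts widen such an interval, so this does not show an unchanged level.

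The genes at the upper end come from 4 classes. *Hist3h2ba*, an H2B gene on chromosome 11, had 8, 12 and 14 counts in the WT libraries at 0, 4 and 8 h, against 60, 88 and 113 in the R255K libraries. Every R255K value was above every WT value, and the ratio of CPM at 0 h was 8.36 (3.98 to 20.2). The 1173 measured genes of chromosome 11 had a median log2 ratio of 0.60 at 0 h, and the measured genes of the other chromosomes 0.05. *Hist1h1c* had 162, 135 and 139 counts in the WT libraries, against 383, 404 and 508 in R255K, a ratio of 2.63 at 0 h (2.19 to 3.19). Its counts were higher in all 3 R255K libraries. *Hist1h4i* had 57, 74 and 84 counts in the WT libraries, against 145, 190 and 214 in R255K, with a ratio of 2.83 at 0 h (2.07 to 3.92). The H3 gene *Hist1h3d* rested on fewer reads, 7, 13 and 10 against 22, 18 and 28, and its ratio at 0 h was 3.50 (1.44 to 9.71).

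At the lower end stood 2 H2B and 2 H3 genes. *Hist1h2bj* had 27, 25 and 43 counts in the WT libraries, against 6, 15 and 12 in R255K, and its ratio at 0 h was 0.25 (0.08 to 0.61). *Hist2h2be*, an H2B gene of the chromosome 3 cluster, had 31, 16 and 29 counts against 10, 5 and 13, a ratio of 0.36 (0.16 to 0.75). For both genes every R255K value lay below every WT value. *Hist1h3c* had 38, 57 and 73 counts against 18, 31 and 35, a ratio of 0.53 (0.28 to 0.95). The interval of *Hist1h3a*, with 24 counts in WT and 10 in R255K cells at 0 h, reached from 0.20 to 1.01.

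**Figure D3:**
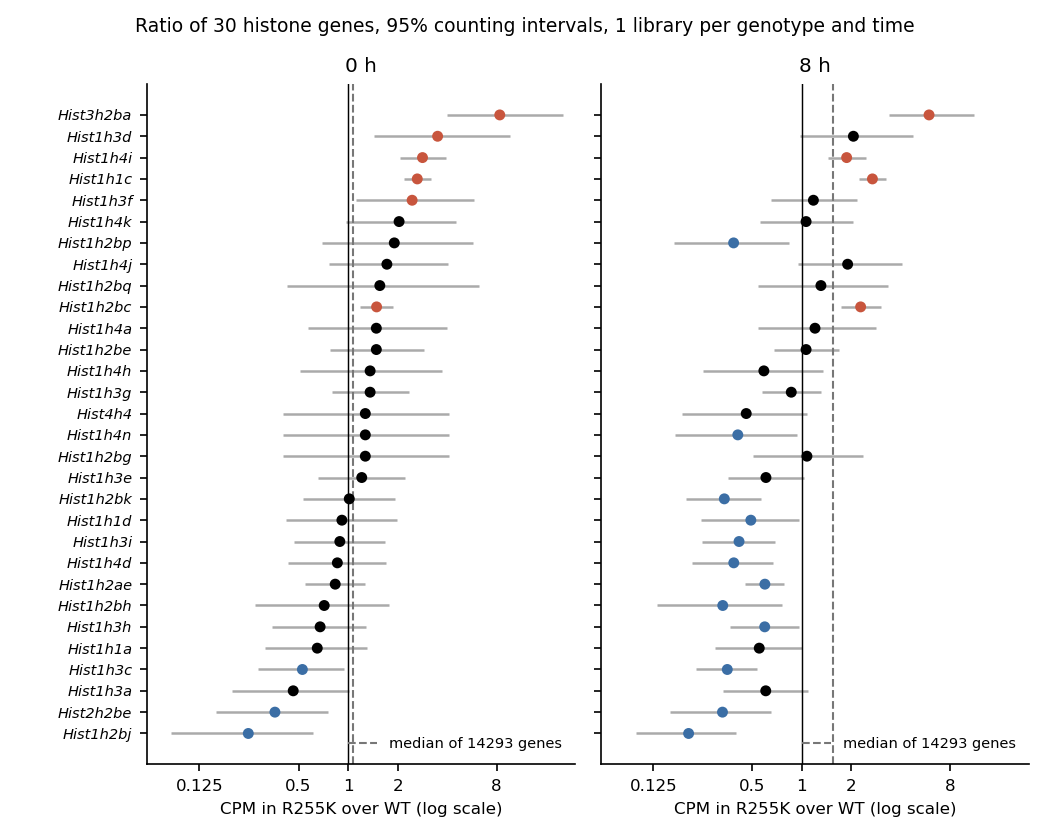
Ratio of CPM in R255K over WT cells (x axis, log scale) at 0 h and at 8 h of actinomycin D for the 30 measured histone genes, in the order of the ratio at 0 h, with 95% counting intervals. Points are red where the interval lies above 1 and blue where it lies below, which holds for 6 and 3 genes at 0 h and for 4 and 12 at 8 h, and the dashed line is the median of all measured genes.

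At 4 and 8 h the median histone gene was lower in R255K cells while the median of all genes was higher, and the summed histone level was not lower. The sum was 71.7 CPM in WT and 84.0 CPM in R255K cells at 4 h, a ratio of 1.17 (1.08 to 1.27), and the ratio at 8 h was 1.07 (0.99 to 1.15). Without *Hist1h1c* these ratios were 0.99 (0.91 to 1.08) and 0.87 (0.81 to 0.95). Of the 30 measured histone genes 12 had a log2 ratio above 0 at 4 h and 12 at 8 h. The median log2 ratio was −0.23 at 4 h and −0.73 at 8 h, against 0.32 and 0.63 over all measured genes. At 4 h 5 histone genes were 2-fold or more higher, where 26.1% of all genes were, and 8 were 2-fold or more lower, where 4.18% were. The counting interval at 4 h lay above 1 for 5 histone genes, against 50.7% of all genes, and below 1 for 9, against 22.5%. At 8 h 3 were 2-fold or more higher, against 39.2% of all genes, and 11 were 2-fold or more lower, against 4.06%. The counting interval at 8 h lay below 1 for 12 histone genes, against 19.9% of all genes, and above 1 for 4, against 57.3%. *Hist1h1c* and *Hist3h2ba* were 2-fold or more higher at all 3 times, as were 11.7% of all genes. Among the 9 histone genes with a mean of at least 30 counts the median was 0.48 at 4 h and 0.08 at 8 h. Over all genes with such counts it was 0.27 and 0.56, so the sign of the histone median depended on the count limit. Of these 9, *Hist1h3c* at 0.35 (0.23 to 0.53), *Hist1h2ae* at 0.60 (0.45 to 0.78) and *Hist1h3h* at 0.59 (0.37 to 0.96) were lower in R255K cells at 8 h. The 4 histone genes with an interval above 1 at 8 h, *Hist1h1c*, *Hist1h2bc*, *Hist1h4i* and *Hist3h2ba*, were also among the 9. *Hist3h2ba* met the limit through its R255K counts.

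After transcription was blocked, the histone transcripts made up a growing part of the WT polyA libraries. Values here are shares of the library relative to 0 h, so a gene above 100% fell less than the library as a whole and need not have increased in the cell. In WT cells the summed histone level went from 56.5 to 71.7 and 93.8 CPM at 0, 4 and 8 h, and in R255K cells from 82.1 to 84.0 and 100.1 CPM. The increase to 8 h was larger in WT cells, to 166% of the 0 h value (153 to 180), than in R255K cells, to 122% (114 to 131), and the 2 intervals do not overlap.

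For single genes the WT median at 8 h was 203% of 0 h, against 62.0% over all measured genes. Of the 30 measured histone genes 29 were above 100%, where 35% of all genes were, and 0 were below 50%, where 43.8% of all genes were. The counting interval lay above 100% for 15 histone genes, against 24.9% of all genes. In R255K cells the median was 115%, against 92.3% over all genes. There 23 of 30 were above 100%, against 44% of all genes, 0 were below 50%, against 21.7%, and the interval lay above 100% for 3, against 27.5%. Scaling to the ribosomal protein genes, which themselves gained in share, gave histone medians of 123% in WT and 99.1% in R255K cells, and medians over all genes of 37.8% and 79.5%. So the position of the histone genes above the other genes held under that scaling, while their position against 100% did not in R255K cells.

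**Figure D4:**
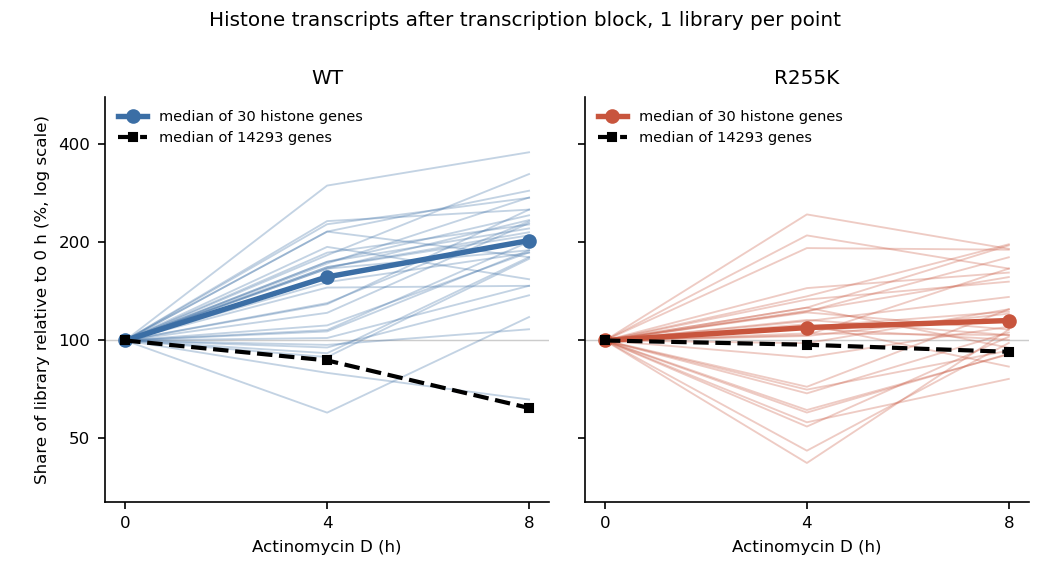
Share of the library relative to 0 h (y axis, percent, log scale) at 0, 4 and 8 h of actinomycin D for the 30 measured histone genes (thin lines), with their median (thick line) and the median of all 14293 measured genes (dashed), in WT and R255K cells. The histone median reaches 203% in WT and 115% in R255K cells at 8 h, and the median of all genes 62.0% and 92.3%.

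*Hist1h2bc* was the only measured histone gene that ended below 100% in WT cells. It encodes an H2B and had no match to the stem-loop motif. Its counts were 136, 93 and 71 in WT cells, which left 65.9% at 8 h (48.7 to 88.4). In R255K cells they were 182, 236 and 220, which is 101% at 8 h (82.2 to 123). Its change from 0 to 8 h was 1.53 times that in WT cells (1.1 to 2.2), and it was the 1 histone gene whose interval of this change lay above 1, against 47.5% of all genes. The H1 gene *Hist1h1c* stood next, with 108% left in WT (85.7 to 137) and 110% in R255K cells (96.4 to 126), which do not differ beyond counting error.

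The histone genes that gained most in share had few counts, apart from 1. *Hist1h2ae*, an H2A gene, went from 56 to 83 and 122 counts in WT cells, or 275% at 8 h (199 to 384), and from 42 to 63 and 99 in R255K cells, or 196% (135 to 288). *Hist1h2bp*, with 7, 18 and 21 counts in WT cells, reached 379% (155 to 1054), and with 12, 8 and 11 counts in R255K cells 76.2% (30.5 to 189). The ratio of these changes, 0.20 (0.06 to 0.66), was the lowest of the 30. *Hist1h2bk*, another H2B gene, went from 23 to 45 and 50 counts in WT cells and from 21 to 15 and 23 in R255K cells, a ratio of changes of 0.33 (0.15 to 0.72).

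The change from 0 to 8 h was smaller in R255K than in WT cells for 26 of the 30 histone genes, and the same held for 32.4% of all genes. The median of the ratio was 0.66, between 0.20 and 1.53. Its counting interval lay below 1 for 4 of the 30, against 18.1% of all genes.

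The sums of histone genes with and without the stem-loop motif differed in the WT time course, but this rested on *Hist1h2bc*. Summed over the 60 genes with the motif, the level at 8 h was 183% of 0 h in WT cells (167 to 201), and over the 10 without it 109% (89.6 to 133). In R255K cells the values were 126% (116 to 136) and 107% (91.0 to 126). *Hist1h2bc* had 136 of the 228 WT counts of the second group at 0 h. Without it, a choice made after seeing the values, that group stood at 173% in WT (131 to 229) and 121% in R255K cells (91.3 to 162), within the interval of the genes with the motif. By class the WT value was 124% for H1 (102 to 151), 145% for H2B (124 to 169), 187% for H4 (152 to 231), 202% for H3 (168 to 244) and 208% for H2A (166 to 262). The intervals of H1 and of H4, H3 and H2A do not overlap, but the low values of H1 and H2B each rested on 1 gene. Without *Hist1h1c* H1 stood at 173% (119 to 254), and without *Hist1h2bc* H2B stood at 209% (171 to 254), and then the intervals of all 5 classes overlap. In R255K cells the order was H1 at 110%, H2B at 122%, H4 at 123%, H3 at 126% and H2A at 177% (135 to 233). The interval of H2A overlaps those of the other classes except H1, which without *Hist1h1c* stood at 103% (67.2 to 158). Without *Hist1h2bc* H2B stood at 144% (119 to 175), above H4 and H3, so the order too rested on single genes.

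A half-life could hardly be given for these genes. The decay rate was the mean of the log ratios from 0 to 4 h and from 0 to 8 h, each divided by the time. It was above 0 for 2 of the 30 in WT cells, against 61.3% of all genes, and for 10 in R255K cells, against 54%. *Hist2h2be* alone had a half-life in both genotypes, as 45.8% of all genes did, of 13.0 h without and 6.70 h with the substitution. Its ratio was below 1/1.5, as for 6.42% of the genes with both half-lives, while 68.3% of those had a ratio over 1.5 and 0 histone genes did. Its counts of 31 or fewer and its turn to 2.31 with the decay from 4 to 8 h alone leave the ratio of 0.52 without a firm direction.

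The measured histone genes were also split by whether they had a peak. The 14 measured genes with a peak in R255K cells alone had a median log2 ratio at 0 h of 0.31, the 7 with a peak in both lists −0.12, and the 9 without a peak 0.43. Of the 6 genes that were 2-fold or more higher at 0 h, 4 had a peak in R255K cells alone, 1 in both lists and 1 in neither. Of the 3 that were 2-fold or more lower, 2 had a peak in R255K cells alone, 0 in both lists and 1 in neither. *Hist3h2ba*, the gene with the highest ratio, had no peak. Peaks and counts came from different libraries, total RNA and polyA RNA.

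Genes that process histone mRNAs, 31 of which were found in the tables and all measured, stayed near a median log2 ratio of 0.02 at 0 h. There 2 were 2-fold or more higher and 3 were 2-fold or more lower, against 14.8% and 10.5% of all genes. *Lsm10*, a subunit of the U7 snRNP, had 260, 54 and 12 counts in the WT libraries at 0, 4 and 8 h, against 521, 491 and 479 in the R255K libraries. *Lsm1*, of the complex that binds oligouridylated histone mRNA, had 854, 577 and 324 counts against 1575, 1615 and 1497. At the other end stood *Npat*, the coactivator of histone gene transcription, with 934, 58 and 22 counts against 390, 182 and 79, and *Casp8ap2* (FLASH), a cleavage factor, with 951, 57 and 14 against 314, 329 and 123. *Slbp*, named here for its role, had 2537, 1013 and 233 counts in WT cells, which left 11.6% at 8 h, and 1821, 1973 and 921 in R255K cells, which left 42.1%. So while the histone transcripts gained in share, those of their stem-loop binding protein lost it in both genotypes. Over the list 13 genes were below 50% at 8 h in WT and 6 in R255K cells, with medians of 73.0% and 94.5%. Out of 31 these counts lie near the 43.8% and 21.7% of all genes. The list had WT peaks on 17 and R255K peaks on 13 genes, the direction of all genes. Out of 31 these counts lie near the 55.6% and 40.7% of measured genes.

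Replication-independent histone genes, most of whose mRNAs are polyadenylated and made outside S phase as well, gave a comparison within the same protein family. Of 18 such genes 12 were measured, at a median of 28.2 FPKM, and their median log2 ratio at 0 h was −0.09. Among the 12, 0 were 2-fold or more higher and 0 were 2-fold or more lower, against 14.8% and 10.5% of all measured genes. *Hist3h2ba*, which has the stem-loop motif, was also on this list and was counted above with the genes of the symbol rule instead. *H2afj* and *H1fx* were highest in ratio, at 1.84 (1.66 to 2.05) and 1.47 (1.31 to 1.64), and *H2afy* and *H2afy2*, which encode macroH2A, were lowest at 0.61 (0.55 to 0.66) and 0.54 (0.48 to 0.60). They too were above most genes after the block of transcription, with a median at 8 h of 132% in WT and 115% in R255K cells. WT peaks were on 4 of the 18 and R255K peaks on 7, against 17.6% and 12.4% of all genes and 55.6% and 40.7% of measured genes. An R255K peak alone was on 4, *H2afz*, *H2afy*, *H2afj* and *H3f3b*, against 1.11% of all genes and 3.13% of measured genes. So more of these genes had a peak in the R255K list than in the WT list, a direction that the replication-dependent genes shared.

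Genes of S phase, 26 in all, had a median log2 ratio of −0.02 at 0 h. Among them 0 were 2-fold or more higher, against 14.8% of all measured genes, and 1 was 2-fold or more lower, against 10.5%. That 1 was *Pola1*, the catalytic subunit of DNA polymerase alpha, with 2112, 2213 and 1151 counts in the WT libraries, against 270, 1326 and 1332 in R255K. Next lowest was *Rfc1* with a ratio of 0.58 (0.55 to 0.61), and the highest were *Fen1* with 1.82 (1.55 to 2.14) and *Tk1* with 1.62 (1.53 to 1.72). Their medians at 8 h were 75.5% in WT and 98.8% in R255K cells. Peaks were on 15 of them in WT and 11 in R255K cells, against 55.6% and 40.7% of measured genes. None had a peak in R255K cells alone, against 3.13% of measured genes.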

How the data were processed

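MeRIP-seq and actinomycin D RNA-seq of WT and METTL14 R255K mESCs were taken as deposited, in 14 samples. According to the methods, rRNA reads were discarded by the authors with Bowtie2 2.2.6, HISAT2 was used for alignment to mm10, and uniquely mapped reads were retained with Picard 2.16.0 and SAMtools 0.1.09. The authors used MACS2 to call peaks from IP and input and deposited 1 list per genotype, with a fold enrichment (a ratio over the local background) and a −log10 q per peak. The counts were deposited by the authors as whole numbers per gene without normalization, with an exon length. The counter, its strand setting and the annotation are not given in the sources used here, and neither is the way replicates were combined before peak calling.

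All 70 gene spans matched GENCODE vM21. A peak belonged to a gene where it overlapped an exon by at least 1 base (bedtools 2.31.1). CPM and FPKM used the summed counts of a library, and log2 ratios added 0.5 count. Called differences were 2-fold or more. The interval of a ratio of 2 counts was conditional exact (Clopper-Pearson), that of a CPM exact Poisson and that of a share Wilson, all at 95%. Such intervals cover counting error or the number of genes or peaks, and no spread between replicates. Shares left of named genes come from the counts themselves, and their medians from counts with 0.5 added. Half-lives set counts under 3 at 4 or 8 h to 3. Sequence features were read from GRCm38. Work was done in Python 3.11.15 with numpy 2.4.6, pandas 2.3.3, scipy 1.17.1, statsmodels 0.14.6 and matplotlib 3.10.9. edgeR 4.0.16 in R 4.3.3 gave TMM factors alone. The scripts were tested on simulated data with known ratios.

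The members, the gene lists and the rule for named genes were chosen with earlier results of these data known. Named genes are the 12 histone genes with the highest FPKM, the 4 highest and 4 lowest in ratio at 0 h, the 4 highest and lowest in share left at 8 h in each genotype, genes with a peak, *Mettl14*, and of each other list the 2 highest and 2 lowest in ratio.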

Additional observations from a re-analysis of the deposited data

How the results depend on the processing

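No paired analysis was possible because the numbered MeRIP libraries were merged into 1 list per genotype and the RNA-seq had 1 library per genotype and time. Of 153 comparisons of a result with an alternative, 114 gave the same direction and a similar value. Leaving out the genes with the most counts was chosen after seeing the data. Without *Hist1h1c* no median, count of genes or half-life moved beyond these limits, but the summed ratio at 0 h fell to 1.22, and without *Hist1h1c*, *Hist1h2bc*, *Hist1h4i* and *Hist3h2ba* it turned to 0.92. The summed WT levels at 8 h went to 173% for H1 without *Hist1h1c*, and without *Hist1h2bc* to 209% for H2B and 173% for the genes without the stem-loop motif. In R255K cells the summed level of H2B at 8 h went to 144% without *Hist1h2bc*.

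With every gene above 0 counts kept, the median log2 ratio at 0 h was −0.044, 18 histone genes were 2-fold or more lower, and 7 in WT and 3 in R255K cells were below 50% at 8 h. With a mean count of at least 30, 3 genes were 2-fold or more higher and 0 lower at 0 h, the medians at 4 and 8 h were 0.480 and 0.079, and the R255K median left at 8 h was 156%. With FPKM and a pseudocount of 1 these counts were 3 and 1, the WT median left was 152% and the half-life ratio 1.25. Of the genes of at most 1000 bases 3 were 2-fold or more higher. With TMM factors the median at 8 h was −1.24, the WT median left 306% and the half-life ratio 0.0863. With correction for GC content the WT median left was 243% and the half-life ratio 0.174. Scaling to 85 ribosomal protein genes gave 123% in WT, with 1 gene below 50%, and 99.1% in R255K cells, a half-life ratio of 1.75 over 6 genes and 3 genes with a ratio above 1.5. The decay from 4 to 8 h alone gave a half-life ratio of 2.31, in 1 gene above 1.5, a minimum of 1 FPKM gave 0.211, and infinite half-lives gave 0 with 1 gene above 1.5. The decay from 0 to 8 h alone, a length of at most 1000 bases and a mean count of at least 30 left no gene with a half-life. A minimum fold enrichment of 4 left 1 peak on 1 histone gene in each list. The cause of these shifts was not tested beyond the change of setting itself. Depth limits the count results, since 12 of the 30 measured genes stayed below 30 counts in every library.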
